A study of Mus musculus with 76 samples.

Results

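Gene expression was compared between 12 of the 76 tumour arrays of a mouse series, 6 labelled with ErbB3 as the introduced gene and 6 labelled with HER2, a partner receptor of the same family. The arrays were chosen by these labels alone, and each gene was read from 1 probe set, the one with the highest mean over all arrays. Tumours of both groups came from C57BL/6 mice and from a directed complementation model. In that model a doxycycline-inducible mutant HER2 oncogene first drives the tumour, is switched off by withdrawing doxycycline, and is replaced by an introduced gene. The ErbB3 tumours therefore carried introduced ErbB3 and the HER2 tumours introduced HER2, with the inducible oncogene switched off in both, and all 12 arrays are labelled as tumours without cachexia. The remaining 64 arrays carry 11 other introduced genes (FAK1, FGFR2aIIIb, FGFR2aIIIc, FGFR3, MAP3K11, MAP3K7, PIP5K1B, RON+MSP, RONd160, RSK2 and TNK2) and were used to estimate the spread and as a common point of comparison. The age and sex of the mice, the number of tumour lines or clones behind each group, the promoter of the introduced gene and its species are not given in the sources used here. An undefined label T1, T2 or T3 is attached to each array, with 2, 1 and 3 arrays in the ErbB3 group and 2, 2 and 2 in the HER2 group.

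The ERBB receptors are tyrosine kinases of the epithelial cell surface that signal as pairs. HER2 (gene symbol Erbb2 in the mouse) has a strong kinase and no known ligand of its own, whereas ErbB3 binds neuregulins, has a weak kinase, and depends on a partner such as HER2 to be phosphorylated. Phosphorylated ErbB3 offers docking sites for PI3 kinase, which activates AKT, while HER2 and the EGF receptor also feed strongly into the RAS and ERK cascade. ERK in turn switches on a set of early genes and of phosphatases and adaptors that dampen it.

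Values were on the log2 scale, from 1.77 to 14.18, and each array had a median of 5.45 to 5.56. The background level was taken as 2.95, the median of probe sets for the bacterial gene trp. Both groups had high levels of the cycling marker Mki67, at medians of 11.04 in ErbB3 tumours and 11.07 in HER2 tumours, and of vimentin (Vim), at medians of 13.40 in ErbB3 tumours and 13.47 in HER2 tumours. The arrays of a group were not treated as independent. They were matched into the pairs that most resembled each other in the median expression of each autosome, a step that gives pairs in any data. In the ErbB3 group the lowest correlation within a pair was 0.88, and arrays of different pairs reached 0.86, so these pairs were not sharply set apart. In the HER2 group the 2 values were 0.86 and 0.25. The pair was kept as a random block in the fit, with a correlation within pairs of 0.628. The ErbB3 pairs are called A (T1 replicate 1 with T3 replicate 1), B (T1 replicate 2 with T3 replicate 2) and C (T2 replicate 1 with T3 replicate 3), and the HER2 pairs A (T1 replicate 1 with T2 replicate 2), B (T1 replicate 2 with T3 replicate 2) and C (T2 replicate 1 with T3 replicate 1). What a pair shares is not stated in the labels, so p-values reflect only how far these arrays and pairs scatter, which may be partly technical.

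ErbB3 tumours differed from HER2 tumours in 2406 of the 13868 genes tested (17.3%), at a Benjamini-Hochberg adjusted p under 0.05 by limma. Of these, 1051 (7.58% of genes tested) were higher and 1355 (9.77%) were lower in ErbB3 tumours. A difference of 2-fold or more was called for 621 genes (4.48%), with 348 higher (2.51%) and 273 lower (1.97%). In 1960 genes (14.1%) all 6 arrays of one group lay beyond all 6 of the other, with ErbB3 above in 822 (5.93%) and below in 1138 (8.21%), and 1459 genes were both called and separated in this way. The median difference over all genes was -0.01. Without the block for pairs 4671 genes were called, and without ErbB3 pair B, the pair farthest from HER2 in several gene groups below, 699 genes were called.

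The 12 genes with the lowest differences among called genes with separated groups were Tmprss11e, Cldn6, Msln, Dynap, Otop1, Krt18, Aqp5, Glrp1, Acsbg1, Lgr6, Lratd1 and Padi4. Mmp12, a secreted elastase, also fell by 3.80 but its groups overlapped. Cldn6, a claudin of tight junctions, had a lowest, median and highest value of 5.41, 5.68 and 5.96 in ErbB3 tumours, against 10.62, 10.77 and 10.97 in HER2 tumours. The fitted difference was -5.07 ± 0.66 (log2, SE), which is 33.6-fold lower in ErbB3 tumours (limma adjusted p = 3.12e-07), and the 2 groups were tight and far apart. Msln (mesothelin, a surface glycoprotein) had 3.75, 4.93 and 6.70 in ErbB3 tumours, against 9.62, 10.0003 and 10.35 in HER2 tumours, a difference of -4.81 ± 0.63 (28.1-fold, adjusted p = 3.22e-07). Tmprss11e, a membrane-bound serine protease, was between 2.44 and 2.77 on the ErbB3 arrays, all at or below the background level, and between 7.81 and 9.33 on the HER2 arrays, with a median of 8.61. It was therefore at least 51.2-fold lower in ErbB3 tumours when the ErbB3 arrays are set to the background level, and its adjusted p was 8.79e-05. The plot of the genes with the highest and lowest differences shows narrow ErbB3 values for Cldn6 and Tmprss11e in all 3 pairs, whereas Msln was highest in ErbB3 pair A.

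**Figure D1:**
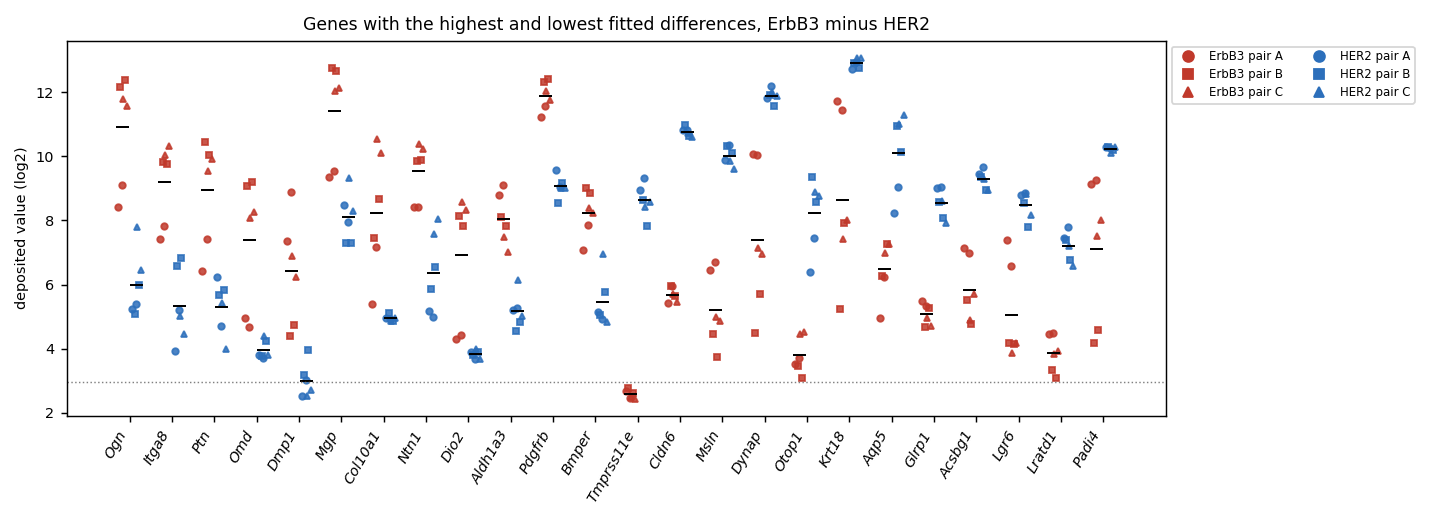
Deposited log2 values (vertical axis) of 24 genes, 12 from each end of the fitted differences, among called genes with separated groups; red symbols are the 6 ErbB3 arrays, blue symbols the 6 HER2 arrays, symbol shapes mark the pairs of arrays, black bars the group means, and the dotted line the background level of 2.95. Cldn6 and Tmprss11e have narrow ErbB3 values, whereas Krt18, Dynap and Padi4 spread widely over the ErbB3 pairs and narrowly over the HER2 pairs.

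Others of the 12 were graded among the ErbB3 pairs. Krt18, the simple-epithelium keratin that pairs with Krt8, was 11.45 and 11.74 in ErbB3 pair A, 5.22 and 7.93 in pair B and 7.42 and 8.01 in pair C, whereas all 6 HER2 arrays lay between 12.72 and 13.08. The fitted difference of Krt18 was -4.32 ± 0.64 (adjusted p = 2.69e-06), and -3.27 without ErbB3 pair B (adjusted p = 0.00036). Krt8 itself had 10.42, 11.68 and 12.68 in ErbB3 tumours, against 12.72, 12.95 and 13.08 in HER2 tumours, a difference of -1.32 ± 0.20 (adjusted p = 3.48e-06). Pair A was the highest ErbB3 pair for both keratins and pair B was the lowest for Krt8. Dynap (4.48, 7.04 and 10.09 in ErbB3 tumours, against 11.57, 11.89 and 12.20 in HER2 tumours) and Padi4 (4.18, 7.77 and 9.25 in ErbB3 tumours, against 10.12, 10.27 and 10.30 in HER2 tumours) had the same order of pairs. Padi4 converts arginine to citrulline in proteins and is best known from neutrophils. The neutrophil list that it stands in had 1 member higher and 2 lower of 12 tested (8.33% and 16.7%, against 7.58% and 9.77% of all genes). The other lower member was Il1r2, a decoy receptor for interleukin 1 (-1.94).

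The remaining genes among the 12 lowest were Otop1, a proton channel (-4.45), Aqp5, a water channel of glandular epithelium (-3.62), Glrp1 (-3.47), Acsbg1, which activates long-chain fatty acids (-3.47), Lgr6, a receptor for R-spondins (-3.46), and Lratd1 (-3.35). Lgr6 again set ErbB3 pair A apart, with 6.58 and 7.40 in pair A and 3.85 to 4.18 in pairs B and C, against 7.80 to 8.86 in HER2 tumours. Of these 12 genes, 11 were called without ErbB3 pair B, the exception being Lratd1 (adjusted p = 0.083). Each group was also compared with the 11 other introduced genes, averaged with equal weight, where 1464 genes were called for ErbB3 (10.6%) and 1112 for HER2 (8.02%). Of the 12 lowest genes, 11 were called in ErbB3 and 7 in HER2. These 12 were chosen for their difference on the same arrays, which raises such counts, so they cannot be read against the shares of all genes. Cldn6 was -2.81 in ErbB3 and 2.26 in HER2 relative to the mean of the other groups, both called. Single groups lay close to each of them, with Cldn6 means of 11.17 in FGFR2aIIIb and 10.53 in FGFR2aIIIc, near HER2 at 10.77, and of 6.24 in RSK2, nearest to ErbB3 at 5.69. Aqp5 was -0.90 in ErbB3 (adjusted p = 0.21) and 2.72 in HER2 (adjusted p = 0.0001), and Krt18 was -3.54 in ErbB3 (adjusted p = 1.2e-06) and 0.78 in HER2 (adjusted p = 0.33).

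The 12 genes with the highest differences among called genes with separated groups included matrix proteins, receptors, enzymes and secreted signalling factors. Ogn (osteoglycin, a small leucine-rich proteoglycan of connective tissue) had a lowest, median and highest value of 8.41, 11.69 and 12.38 in ErbB3 tumours, against 5.08, 5.69 and 7.80 in HER2 tumours. The difference was 4.96 ± 0.88, or 31.1-fold (adjusted p = 4.22e-05), and pair A, at 8.41 and 9.09, lay nearest to HER2. Its relative Omd (osteomodulin) had 4.68, 8.18 and 9.21 in ErbB3 tumours, against 3.71, 3.79 and 4.38 in HER2 tumours (3.45 ± 0.75, adjusted p = 0.000718). Omd was 4.68 and 4.95 in ErbB3 pair A and 8.08 to 9.21 in pairs B and C, so most of its difference came from 2 of the 3 pairs. Dio2, which converts thyroid hormone to its active form, had the same shape, with 4.30 and 4.43 in ErbB3 pair A and 7.83 to 8.57 in pairs B and C, against 3.66 to 3.98 in HER2 tumours (3.12 ± 0.66, adjusted p = 0.000471).

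Genes of mineralised tissue and cartilage were among them. Col10a1, a collagen of hypertrophic cartilage, had 5.39, 8.06 and 10.56 in ErbB3 tumours, against 4.86, 4.94 and 5.11 in HER2 tumours, a difference of 3.26 ± 0.47 (adjusted p = 1.57e-06). Dmp1, a phosphoprotein of bone and dentine matrix, had 4.39, 6.56 and 8.90 in ErbB3 tumours, against 2.50, 2.85 and 3.96 in HER2 tumours (3.43 ± 0.88, adjusted p = 0.00406), where 3 HER2 arrays were at or below background. The pairs were ordered differently in these 2 genes, with pair C highest for Col10a1 and pair A highest for Dmp1. Mgp, the matrix Gla protein that restrains calcification, was 9.35, 12.10 and 12.75 in ErbB3 tumours, against 7.29, 8.13 and 9.33 in HER2 tumours (3.32 ± 0.62, adjusted p = 9.89e-05).

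Pdgfrb, the platelet-derived growth factor receptor of mesenchymal cells, gave 11.22, 11.89 and 12.40 in ErbB3 tumours, against 8.54, 9.03 and 9.59 in HER2 tumours (2.83 ± 0.38, adjusted p = 3.83e-07). Separated groups were a condition for this set of genes, and for Pdgfrb the lowest ErbB3 value of 11.22 was well above the highest HER2 value of 9.59. The other genes among the 12 highest were the integrin Itga8 (3.88), the growth factor pleiotrophin Ptn (3.70), the guidance factor netrin Ntn1 (3.18), the retinoic acid enzyme Aldh1a3 (2.92) and the BMP-binding protein Bmper (2.80). Of the 12, 11 were called without ErbB3 pair B, the exception being Aldh1a3 (2.95, adjusted p = 0.073), which also missed the threshold without HER2 pair B (adjusted p = 0.069). Against the other 11 groups, 11 of the 12 were called in ErbB3 and 5 in HER2, counts again raised by the choice of these genes on the same arrays. Col10a1 was 3.03 in ErbB3 (adjusted p = 2.2e-08) and -0.23 in HER2 (adjusted p = 0.75), whereas Aldh1a3 was 0.67 in ErbB3 (adjusted p = 0.59) and -2.25 in HER2 (adjusted p = 0.022).

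The receptors themselves were examined next. Mouse Erbb3 had 4.83, 5.02 and 5.27 in ErbB3 tumours, against 5.04, 5.37 and 5.57 in HER2 tumours, so the introduced gene was not seen as a higher signal (-0.28 ± 0.39, adjusted p = 0.69). A further Erbb3 probe set averaged 3.88 in ErbB3 tumours and 3.79 in HER2 tumours and gave no call either. Erbb2 had 6.36, 6.49 and 6.71 in ErbB3 tumours, against 6.53, 6.84 and 7.19 in HER2 tumours (-0.36 ± 0.13, adjusted p = 0.0516), with overlapping groups. The probe sets are designed for mouse transcripts and may lie outside the introduced sequence or not match its species, so they do not check the labels. Egfr rose in ErbB3 tumours, with 7.46, 8.16 and 9.09 against 5.98, 7.12 and 7.30 in HER2 tumours (1.31 ± 0.34, adjusted p = 0.00456), and all ErbB3 arrays lay above all HER2 arrays. The value of 5.98 came from 1 array, and the other HER2 arrays lay between 7.01 and 7.30. Further Egfr probe sets were called at 1.07 and 0.48 in a fit on all probe sets. Others, at 0.51, 0.07, 0.001 and -0.23, were not called. For the main Egfr probe set the difference was 0.97 without ErbB3 pair B (adjusted p = 0.12). Erbb4 was below the expression filter, at means of 2.44 in ErbB3 tumours and 2.55 in HER2 tumours.

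Of the ligands of the EGF receptor, Tgfa, Btc and Hbegf were lower in ErbB3 tumours, and Epgn, Ereg and the neuregulins that bind ErbB3 were not called. Of 7 ligand genes tested, 3 fell and none rose, against a background of 9.77% lower and 7.58% higher among all genes, and the median difference was -0.27. Tgfa (transforming growth factor alpha) had 4.23, 4.77 and 4.98 in ErbB3 tumours, against 6.67, 7.51 and 8.19 in HER2 tumours (-2.86 ± 0.56, adjusted p = 0.000181), with no overlap. Relative to the other 11 groups it was -1.33 in ErbB3 and 1.53 in HER2, both called. Btc (betacellulin) was 8.42 and 8.48 in ErbB3 pair A and 5.70 to 5.92 in pairs B and C, against 8.16 to 9.15 in HER2 tumours (-1.95 ± 0.58, adjusted p = 0.013). Hbegf (heparin-binding EGF-like growth factor) was 9.72 and 10.03 in ErbB3 pair A and 7.54 to 7.86 in pairs B and C, against 9.90 to 10.35 in HER2 tumours (-1.67 ± 0.39, adjusted p = 0.00167). For Btc and Hbegf, ErbB3 pair A thus lay within or beside the HER2 range, and without pair B both missed the threshold (adjusted p = 0.18 for Btc and 0.064 for Hbegf). The neuregulins Nrg1 (0.33, adjusted p = 0.338) and Nrg2 (0.10, adjusted p = 0.706) and the ligands Epgn (0.33) and Ereg (-0.27) overlapped between the groups.

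**Figure D2:**
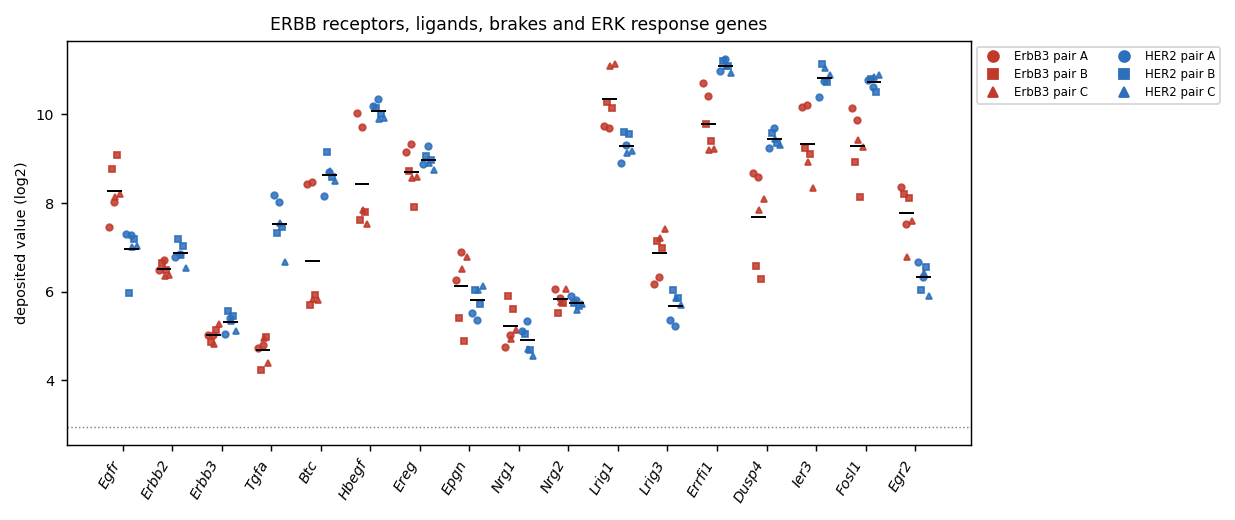
Deposited log2 values (vertical axis) of ERBB receptors, their ligands, proteins that restrain ERBB signalling and genes that respond to ERK; red symbols are the 6 ErbB3 arrays, blue symbols the 6 HER2 arrays, shapes mark the pairs of arrays, black bars the group means, and the dotted line the background level of 2.95. Tgfa, Errfi1, Dusp4, Ier3 and Fosl1 lie lower on all 6 ErbB3 arrays than on any HER2 array, and Egfr, Lrig1, Lrig3 and Egr2 lie higher.

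Proteins that bind or restrain the receptors moved in both directions. Of 22 adaptors and brakes tested, 2 rose and 3 fell, shares close to the background, with a median of -0.13. Lrig1 and Lrig3 are membrane proteins of which Lrig1 is known to target ERBB receptors for degradation. Lrig1 had 9.68, 10.22 and 11.14 in ErbB3 tumours, against 8.91, 9.25 and 9.61 in HER2 tumours (1.06 ± 0.24, adjusted p = 0.00139), and Lrig3 had 6.18, 7.07 and 7.41 in ErbB3 tumours, against 5.23, 5.77 and 6.04 in HER2 tumours (1.21 ± 0.24, adjusted p = 0.000187). Errfi1, which blocks the kinase of the EGF receptor and is itself induced by its signal, went the other way. It had 9.19, 9.59 and 10.72 in ErbB3 tumours, against 10.93, 11.10 and 11.25 in HER2 tumours (-1.30 ± 0.25, adjusted p = 0.000174). Relative to the other 11 groups Errfi1 was -1.34 in ErbB3 (adjusted p = 2.7e-06) and -0.04 in HER2 (adjusted p = 0.93). The kinase Src fell by 0.79 and the ubiquitin ligase Cblb by 0.67, and these 5 genes kept their call without ErbB3 pair B except Cblb.

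Among genes that respond to ERK, more were called lower than higher in ErbB3 tumours. Of 30 tested, 11 fell (36.7%, against 9.77% of all genes), 2 rose (6.67%, against 7.58%) and 17 were not called. The list median was -0.39. The list mean was -0.10 and 0.12 in ErbB3 pair A, -0.56 and -0.45 in pair B and -0.68 and -0.58 in pair C, against -0.09 to 0.07 on the HER2 arrays, so pair A lay around the HER2 range. Dusp4, a phosphatase that inactivates ERK, had 6.29, 7.97 and 8.68 in ErbB3 tumours, against 9.25, 9.40 and 9.70 in HER2 tumours (-1.78 ± 0.44, adjusted p = 0.00303). Ier3, an early response gene, had 8.34, 9.17 and 10.22 in ErbB3 tumours, against 10.38, 10.82 and 11.14 in HER2 tumours (-1.48 ± 0.40, adjusted p = 0.00579). Both had separated groups, and both were low relative to the other 11 groups in ErbB3 (-1.70 for Dusp4 and -1.45 for Ier3, both called) and near them in HER2 (0.08 and 0.03). Fosl1, the AP-1 factor FRA1, had 8.13, 9.34 and 10.15 in ErbB3 tumours, against 10.50, 10.79 and 10.89 in HER2 tumours (-1.44 ± 0.29, adjusted p = 0.000292). The others that fell were Plaur, Epha2, Dusp7, Spred3, Dusp5, Myc, Spred2 and Ccnd1, by 1.35 to 0.46. The early growth response factors Egr2 and Egr1 rose instead. Egr2 had 6.78, 7.86 and 8.37 in ErbB3 tumours, against 5.92, 6.38 and 6.68 in HER2 tumours (1.45 ± 0.38, adjusted p = 0.00547), and Egr1 rose by 1.25. Dusp6, a phosphatase that is a common readout of ERK, was not called (0.13 ± 0.21). Without ErbB3 pair B, 8 members fell and none rose.

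Genes of the PI3 kinase, AKT and FOXO list were called in both directions. Of 32 genes tested, 5 rose (15.6%) and 8 fell (25%), against 7.58% higher and 9.77% lower among all genes. In the list 23 had a difference below 0 and 9 above it, and the median was -0.11. The list mean was -0.16 to 0.01 on the ErbB3 arrays, against 0.04 to 0.08 on the HER2 arrays, with no overlap. The regulatory subunit gene Pik3r3 had 6.33, 6.98 and 7.43 in ErbB3 tumours, against 5.53, 5.82 and 6.09 in HER2 tumours (1.08 ± 0.33, adjusted p = 0.0148), and the stress sensor Sesn1 rose by 1.06. The phosphatase gene Inpp4b had 4.62, 5.11 and 5.70 in ErbB3 tumours, against 5.67, 6.40 and 6.81 in HER2 tumours (-1.23 ± 0.43, adjusted p = 0.0399). Pdk1 in this list is the pyruvate dehydrogenase kinase and belongs to glucose metabolism. It had 6.39, 7.89 and 8.48 in ErbB3 tumours, against 8.57, 9.01 and 9.33 in HER2 tumours (-1.33 ± 0.37, adjusted p = 0.00756). None rose and 3 fell without ErbB3 pair B, namely Rptor, Irs1 and Rictor.

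Glycolytic and hypoxia-inducible genes were lower in ErbB3 tumours. All 25 tested had a difference below 0, and the list median was -0.90. Of them 21 were called lower (84%, against 9.77% of all genes) and none higher. These genes are known targets of the hypoxia-inducible factor HIF, which binds the core ACGTG in promoters. RefSeq promoter windows of the assembly GRCm38.p6, from 250 bases before to 50 after each gene's start, were searched for this core on both strands (ACGTG or CACGT). A match was found for 18 of the 24 list members with a window (75.0%), against 28.0% of 11111 tested genes and 19.6% of all 32851 windows. The list was written from general knowledge and holds known targets, so this share describes the list. It does not bear on the difference between ErbB3 and HER2 tumours. To show what such a site looks like, 3 of the 4 list members named by rule were chosen because they hold a match, which the fourth, Aldoc, does not in the same stretch, and the 250 bases before the start are printed 5′ to 3′ on the gene's strand, with the core in capitals. They lie at chr12:54203875-54204124 (minus strand, Egln3), chr4:43506776-43507025 (plus strand, Car9) and chr4:119108495-119108744 (plus strand, Slc2a1).
Egln3: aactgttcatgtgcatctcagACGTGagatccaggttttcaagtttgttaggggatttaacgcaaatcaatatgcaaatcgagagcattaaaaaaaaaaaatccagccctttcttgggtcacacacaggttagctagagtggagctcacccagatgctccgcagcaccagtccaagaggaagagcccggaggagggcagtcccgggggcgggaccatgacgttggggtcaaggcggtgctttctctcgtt
Car9: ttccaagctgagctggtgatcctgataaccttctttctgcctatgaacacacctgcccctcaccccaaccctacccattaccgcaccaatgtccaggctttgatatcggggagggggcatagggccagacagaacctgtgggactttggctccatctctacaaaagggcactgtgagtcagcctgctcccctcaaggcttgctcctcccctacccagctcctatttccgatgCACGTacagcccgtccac
Slc2a1: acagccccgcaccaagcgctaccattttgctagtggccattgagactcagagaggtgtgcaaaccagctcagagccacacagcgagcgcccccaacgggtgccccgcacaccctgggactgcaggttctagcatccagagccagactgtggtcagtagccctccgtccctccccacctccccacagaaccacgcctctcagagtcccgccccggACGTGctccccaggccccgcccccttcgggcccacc
The core begins 18 bases before the start of Car9, 36 bases before that of Slc2a1 and 229 bases before that of Egln3. A match in these letters is a description of the sequence, and binding was not measured.

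Egln3, a prolyl hydroxylase that marks HIF for destruction and is itself induced by it, had 4.72, 8.22 and 8.88 in ErbB3 tumours, against 8.89, 9.72 and 10.82 in HER2 tumours (-2.48 ± 0.62, adjusted p = 0.00345). Car9, a carbonic anhydrase of the cell surface, had 4.94, 7.86 and 8.74 in ErbB3 tumours, against 8.48, 9.83 and 10.59 in HER2 tumours (-2.25 ± 0.76, adjusted p = 0.0308), with some overlap. Slc2a1, the glucose transporter GLUT1, had 8.42, 9.67 and 10.97 in ErbB3 tumours, against 11.07, 11.42 and 11.70 in HER2 tumours (-1.75 ± 0.39, adjusted p = 0.000948). Aldoc, an aldolase, had 5.41, 6.99 and 8.17 in ErbB3 tumours, against 8.14, 8.83 and 9.15 in HER2 tumours (-1.87 ± 0.49, adjusted p = 0.00503). Other glycolytic enzymes fell by less, 0.58 for Ldha, 0.52 for Pgk1 and 0.34 for Gapdh. The 4 not called were Adm (-1.77), Car12 (-0.90), P4ha2 (-0.65) and Vegfa (-0.35).

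The size of this shift depended on the pair. As a mean over the list, relative to all 76 arrays, ErbB3 pair B was at -1.40 and -1.30, pair C at -0.80 and -0.27 and pair A at -0.10 and 0.06, against 0.11 to 0.75 on the HER2 arrays. All 6 ErbB3 arrays were below all HER2 arrays, but pair A was close to the lowest of them. Without ErbB3 pair B, 4 of the 25 were called lower (Aldoc, Hk2, Pkm and Hk1) and the median was -0.69. In a fit on the 12 arrays alone, 6 were called.

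**Figure D3:**
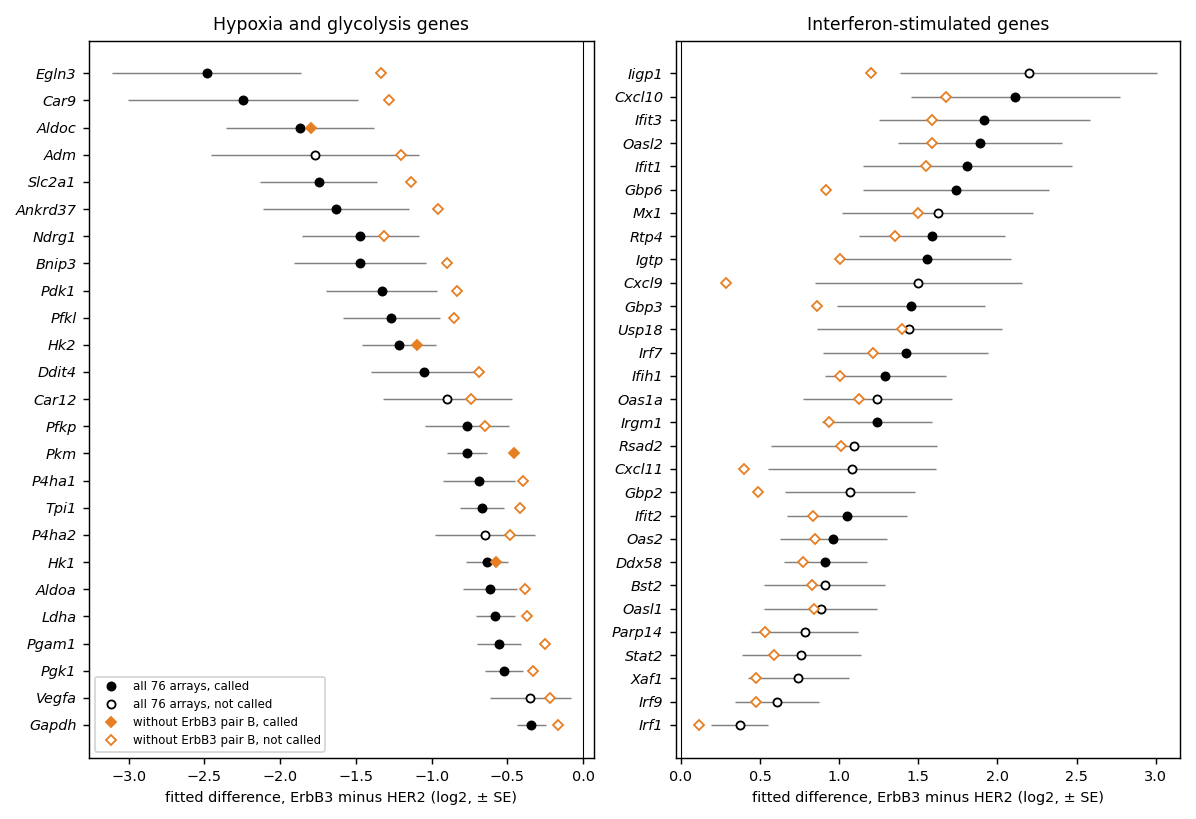
Fitted log2 difference, ErbB3 minus HER2 (horizontal axis), of each tested gene of the hypoxia and glycolysis list (left) and of the interferon-stimulated list (right); black circles with bars are the difference and its SE in the fit on all 76 arrays, orange diamonds the difference without ErbB3 pair B, and filled symbols are called at adjusted p under 0.05. All 25 hypoxia and glycolysis genes lie below 0 and all 29 interferon-stimulated genes above it, in both settings, and fewer are called without pair B.

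Interferon-stimulated genes and the machinery of MHC class I presentation were higher in ErbB3 tumours. Of 29 interferon-stimulated genes tested, 14 rose (48.3%, against 7.58% of all genes) and none fell. All 29 had a difference above 0, and the median was 1.24. Signalling by interferon reaches many of these genes through an element with the core GAAANNGAAA, searched here on both strands (also TTTCNNTTTC). It was found in the window of 13 of the 21 members with a window (61.9%), against 3.5% of 11111 tested genes and 3.4% of all windows. This share too describes how the list was chosen, and it does not bear on the difference between the tumours. The 250 bases before the start are given for the 3 of 4 list members named by rule that hold a match, which Oasl2 does not in the same stretch, with the core in capitals, at chr5:92348890-92349139 (minus strand, Cxcl10), chr19:34583279-34583528 (plus strand, Ifit3) and chr19:34640639-34640888 (plus strand, Ifit1).
Cxcl10: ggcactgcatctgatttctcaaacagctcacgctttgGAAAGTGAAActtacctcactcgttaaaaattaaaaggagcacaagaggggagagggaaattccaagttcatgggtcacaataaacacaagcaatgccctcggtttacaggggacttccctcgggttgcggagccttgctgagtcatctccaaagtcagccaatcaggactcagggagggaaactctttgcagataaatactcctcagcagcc
Ifit3: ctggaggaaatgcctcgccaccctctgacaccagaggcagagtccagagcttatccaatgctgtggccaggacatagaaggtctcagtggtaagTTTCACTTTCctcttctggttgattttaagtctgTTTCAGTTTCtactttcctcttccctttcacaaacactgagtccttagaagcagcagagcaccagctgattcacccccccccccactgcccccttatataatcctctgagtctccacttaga
Ifit1: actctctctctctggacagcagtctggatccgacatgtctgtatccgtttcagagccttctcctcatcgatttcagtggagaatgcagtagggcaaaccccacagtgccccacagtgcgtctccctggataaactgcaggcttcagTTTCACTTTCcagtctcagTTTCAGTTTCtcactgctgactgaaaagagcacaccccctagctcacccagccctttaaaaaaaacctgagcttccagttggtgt
Ifit3 and Ifit1 each hold 2 matches in this stretch and Cxcl10 holds 1.

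Cxcl10, a chemokine that draws T cells, had 6.73, 8.79 and 9.95 in ErbB3 tumours, against 5.36, 6.34 and 7.26 in HER2 tumours (2.11 ± 0.66, adjusted p = 0.0193). Ifit3 had 6.95, 9.33 and 9.79 in ErbB3 tumours, against 5.63, 6.84 and 8.08 in HER2 tumours (1.92 ± 0.66, adjusted p = 0.0354). Oasl2 rose by 1.89 and Ifit1 by 1.81, and these 4 genes, which act in antiviral defence or its signalling, overlapped between the groups. The list mean was 1.21 and 1.60 in ErbB3 pair B, 0.78 and 1.02 in pair C and -0.47 and 0.25 in pair A, against -1.30 to -0.13 on the HER2 arrays. Pair A therefore reached into the HER2 range, and none of the 29 genes was called without ErbB3 pair B, or without HER2 pair B, although all 29 stayed above 0 without ErbB3 pair B.

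The MHC class I list was called in 9 of 13 genes, all higher (69.2%, against 7.58% of all genes), with a median of 0.79. The immunoproteasome subunit Psmb8 had 10.32, 10.97 and 11.81 in ErbB3 tumours, against 8.59, 9.15 and 9.60 in HER2 tumours (1.85 ± 0.44, adjusted p = 0.00179), and Psmb9 had 8.74, 10.02 and 11.02 in ErbB3 tumours, against 7.60, 8.04 and 8.38 in HER2 tumours (1.86 ± 0.42, adjusted p = 0.00117). Nlrc5, which switches on class I genes, rose by 1.77 and the peptide transporter Tap1 by 1.62. Psmb8, Psmb9 and Tap1 had no overlap between the groups. Without ErbB3 pair B, Psmb8 and Tap2 were called. MHC class II genes gave 1 called gene of 12, the protease Ctss (0.89), with a median of 0.20.

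Markers of other cells in the tumour moved along with these groups. In bulk tissue fewer cells of a type and less RNA per cell cannot be told apart. Fibroblast and matrix genes rose in 14 of 26 tested (53.8%, against 7.58% of all genes) and fell in none, with a median of 0.91. Without ErbB3 pair B, 7 were called higher. Loxl1, which cross-links elastin, had 9.63, 10.36 and 11.24 in ErbB3 tumours, against 7.73, 8.28 and 8.70 in HER2 tumours (2.27 ± 0.33, adjusted p = 1.98e-06), and Dpt (dermatopontin) rose by 1.92. The list mean was -0.00 to 0.97 on the ErbB3 arrays, against -1.08 to -0.27 on the HER2 arrays, with no overlap, and pair B was the highest ErbB3 pair. Fibronectin (Fn1) and S100a4 were not called (0.14 and -0.05). With the list's mean as a covariate, a setting chosen after the data were seen, 385 of 13868 genes were called, and 7 of the 12 highest and 9 of the 12 lowest genes were among them. Ogn and Pdgfrb, among the 12 highest, are members of this list and were thus adjusted partly for themselves.

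Macrophage genes rose in 12 of 24 tested (50%, against 7.58% of all genes) and fell in none, with a median of 0.83. Ms4a7 had 9.58, 11.17 and 11.71 in ErbB3 tumours, against 8.15, 8.74 and 9.43 in HER2 tumours (2.03 ± 0.40, adjusted p = 0.000184). Adgre1, which encodes the macrophage antigen F4/80, had 9.12, 9.87 and 10.48 in ErbB3 tumours, against 8.03, 8.39 and 8.52 in HER2 tumours (1.45 ± 0.31, adjusted p = 0.00073). Cx3cr1, a chemokine receptor of monocytes and microglia, rose by 2.04 and the lipid carrier Apoe by 1.36. All 4 had separated groups, and the list mean was 0.22 to 0.90 on the ErbB3 arrays, against -0.64 to -0.24 on the HER2 arrays. Without ErbB3 pair B, 3 of the 24 were called (Ms4a7, Adgre1 and Apoe). The part of macrophages in the interferon, class I and hypoxia shifts was not tested. With the fibroblast mean as a covariate, 0 interferon-stimulated, 0 class I and 3 hypoxia and glycolysis genes were called by limma. That mean does not overlap between the groups, so the covariate and the group share most of their variation, and lost calls do not measure the part of fibroblasts. The fitted differences in that setting were 1.41 for Cxcl10, 1.37 for Psmb9 and -1.22 for Slc2a1, against 2.11, 1.86 and -1.75 without the covariate.

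**Figure D4:**
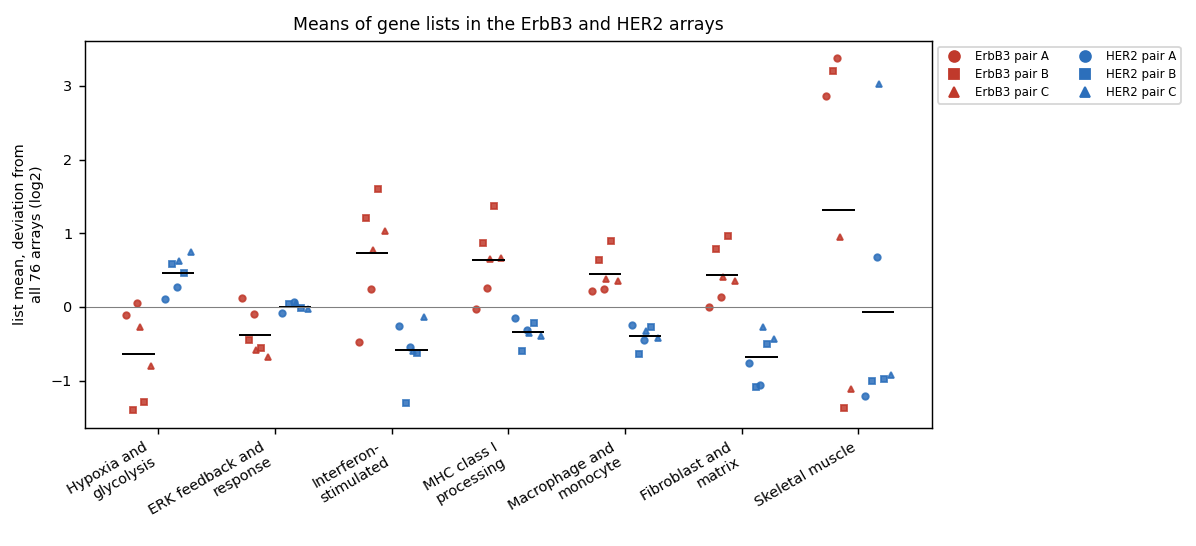
Mean of each gene list on every array, as the deviation from the mean of all 76 arrays in log2 units (vertical axis); red symbols are the 6 ErbB3 arrays, blue symbols the 6 HER2 arrays, shapes mark the pairs of arrays, and black bars are group means. The fibroblast, macrophage and hypoxia lists separate the groups, with ErbB3 pair B farthest from HER2, whereas the skeletal muscle list spreads from -1.37 to 3.37 among ErbB3 arrays and from -1.21 to 3.02 among HER2 arrays.

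Markers of other cell types were called as follows, against 7.58% higher among all genes. T and NK cell genes rose in 4 of 16 (Klrd1 by 1.90, Nkg7 by 1.57, Ccl5 by 1.26 and Klrk1 by 1.04), all with overlapping groups and none called without ErbB3 pair B. Of 9 B and plasma cell genes, 3 rose (Blnk, Ighm and Cd22) and 1 fell (Sdc1, a syndecan that epithelial cells also make), and none was called without ErbB3 pair B. Endothelial genes rose in 2 of 23, Kdr by 0.92 and Sox18 by 0.82, and neither was called without ErbB3 pair B, although all ErbB3 arrays lay above all HER2 arrays in 9 of the 23. Pericyte and smooth muscle genes rose in 2 of 14, and of these Acta2 (smooth muscle actin) had 12.02, 12.18 and 12.31 in ErbB3 tumours, against 9.70, 10.04 and 10.48 in HER2 tumours (2.13 ± 0.42, adjusted p = 0.000181). The chemokine list rose in 3 of 31, led by Cxcl12, which mesenchymal cells release. Cxcl12 had 11.42, 11.75 and 12.03 in ErbB3 tumours, against 7.80, 9.25 and 9.77 in HER2 tumours (2.75 ± 0.57, adjusted p = 0.000353). None of 28 skeletal muscle, 15 adipocyte and 8 skin genes was called by limma, with medians of 1.71, 0.97 and -0.05, while 1, 2 and 0 of them had an unadjusted p below 0.05 and 5, 8 and 1 were called without the pair block. Muscle signal varied within pairs, from -1.37 to 3.20 in ErbB3 pair B, and with the muscle mean as a covariate 2404 genes were called.

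**Figure D5:**
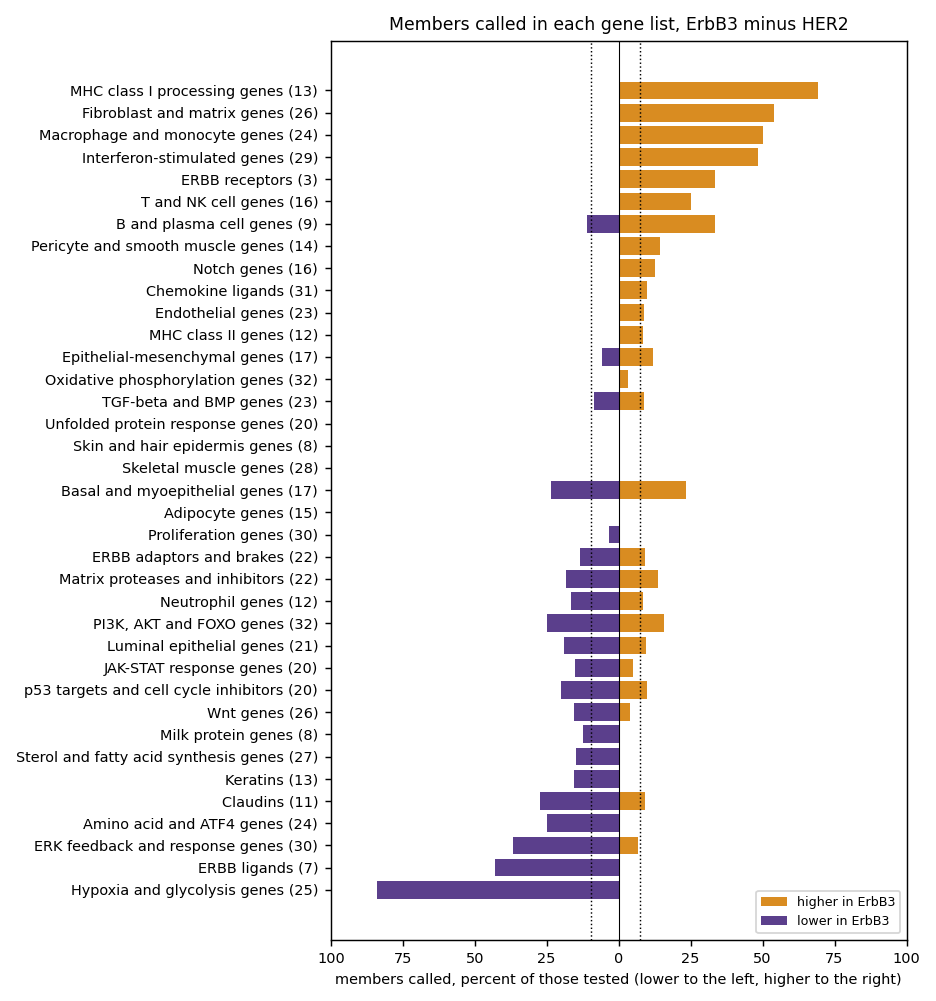
Share of each list's tested members called higher (orange, to the right) or lower (purple, to the left) in ErbB3 tumours than in HER2 tumours, as a percentage of the members tested, whose number stands in brackets; dotted lines mark the shares over all genes tested, 7.58% higher and 9.77% lower. Class I, fibroblast, macrophage and interferon lists extend to the right, and the hypoxia, ERBB ligand and ERK lists to the left.

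Luminal and basal lineage genes were called in both directions, where 7.58% of all genes were higher and 9.77% lower. Among 21 luminal epithelial genes, 4 fell (Krt18, Cd24a, Foxa1 and Krt8) and 2 rose (Aldh1a3 and Esr1), with a median of 0.05. Foxa1, a pioneer factor of luminal cells, had 6.77, 7.16 and 7.92 in ErbB3 tumours, against 7.99, 9.11 and 10.03 in HER2 tumours (-1.87 ± 0.66, adjusted p = 0.0377), and Cd24a fell by 2.64. Both missed the threshold without ErbB3 pair B (adjusted p = 0.084 for Foxa1 and 0.11 for Cd24a). Among 17 basal and myoepithelial genes, 4 rose (Acta2, Snai2, Egfr and Mylk) and 4 fell (Lamb3, Sfn, Itga6 and Itgb4). Those that rose are also made by mesenchymal cells, whereas those that fell encode a laminin chain, an epithelial 14-3-3 protein and an integrin pair that binds laminin. Some genes stand in several lists, so the list counts are not separate results. Acta2 and Mylk are also counted as pericyte genes, Snai2 as an epithelial-mesenchymal gene, Egfr as a receptor, and Krt18 and Krt8 as keratins. Lamb3 had 5.54, 6.58 and 7.31 in ErbB3 tumours, against 8.86, 8.996 and 9.62 in HER2 tumours (-2.72 ± 0.67, adjusted p = 0.00276), and Sfn had 5.49, 6.10 and 6.66 in ErbB3 tumours, against 8.21, 8.50 and 9.18 in HER2 tumours (-2.48 ± 0.44, adjusted p = 4.81e-05).

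Both Lamb3 and Sfn were high in HER2 relative to the other 11 groups, by 1.67 and 1.28, both called. Keratins gave 2 of 13 lower, Krt18 and Krt8, and claudins 3 of 11 lower (Cldn6, Cldn23 and Cldn12) and 1 higher (Cldn1, 1.28). Of the keratins 11 were below 0, and of the claudins 6 were below 0 and 5 above it. The keratin list mean was -0.99 to -0.12 on the ErbB3 arrays, against 0.15 to 0.61 on the HER2 arrays. The claudin list mean was -0.40 to -0.14, against 0.08 to 0.29, so neither list mean overlapped between the groups. A single gene weighs heavily in each mean, Cldn6 (-5.07) among the claudins and Krt18 (-4.32) among the keratins. The median difference was -0.06 for the claudins and -0.26 for the keratins, so these means do not show a shift of the whole family. For Cldn23 (-0.85), 3 ErbB3 arrays were at or below background. Of 17 epithelial-mesenchymal genes, 2 transcription factors rose, Snai2 and Zeb1, and the cadherin Cdh2 fell by 0.98. Snai2 had 9.05, 9.72 and 10.72 in ErbB3 tumours, against 7.81, 8.32 and 8.53 in HER2 tumours (1.63 ± 0.31, adjusted p = 0.00013). The epithelial cadherin Cdh1 was not called (-1.35 ± 0.63, adjusted p = 0.136), nor was Epcam (0.37 ± 0.17, adjusted p = 0.134). Of 30 proliferation genes 1 was called, Ube2c (-0.55), but 28 were below 0 and the median was -0.21. By limma 5 of them had an unadjusted p below 0.05, and 5 were called without the pair block. Their list mean was -0.44 and -0.28 in ErbB3 pair B and -0.004 to 0.21 in pairs A and C, against 0.12 to 0.21 on the HER2 arrays. Of 32 respiratory chain genes 1 was called, Ndufa5 (0.46).

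Further metabolic lists are given against the 9.77% of all genes called lower. Of 24 genes of amino acid supply and the stress factor ATF4, 6 fell and none rose, with a median of -0.52. Vldlr, a lipoprotein receptor, had 4.68, 5.42 and 7.09 in ErbB3 tumours, against 7.11, 7.56 and 8.70 in HER2 tumours (-2.01 ± 0.54, adjusted p = 0.00619), and Cth, which makes cysteine, fell by 1.91. The list mean was 0.56 and 0.68 in ErbB3 pair A, within the HER2 range of 0.27 to 0.75, and -0.64 to -0.10 in pairs B and C. None of the 24 was called without ErbB3 pair B. Relative to the other 11 groups Cth was -0.21 in ErbB3 (adjusted p = 0.82) and 1.70 in HER2 (adjusted p = 0.007). Of 27 sterol and fatty acid synthesis genes, 4 fell (Acsl3, Msmo1, Srebf2 and Sc5d, by 0.84 to 0.62) and none rose, with a median of -0.25. Srebf2, the master regulator of sterol synthesis, was called without ErbB3 pair B (adjusted p = 0.039). Of the milk protein list, 4 of 8 were below 0 and 1 fell, the lipid droplet gene Plin2, with 10.85, 11.45 and 12.22 in ErbB3 tumours, against 12.44, 12.52 and 12.72 in HER2 tumours (-0.98 ± 0.19, adjusted p = 0.000197). Of 20 genes of the unfolded protein response 17 were above 0, and none was called by limma with pairs as a block, where 2 had an unadjusted p below 0.05 and 4 were called without the block.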

How the data were processed

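Per the labels' protocols, total RNA from tumour material was extracted with an RNeasy kit, biotinylated and put on Affymetrix arrays of 45101 probe sets. The authors deposited log2 values, 1 per probe set on each array. Of the tools, only affy is named, per the submitters' processing notes and without a version; sources used here do not state the normalization. The deposited values were not normalized again. The number of per-sample columns left unused was 0, and 0 arrays were identical. Of the probe sets, 34958 name 1 gene, 932 several and 9211 none in the platform annotation. Genes were tested where the probe set exceeded the array's 40th percentile on 4 or more arrays, leaving 13868 of 18194 genes. The number of arrays limits the precision.

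All 76 arrays were fitted by limma 3.58.1 (statmod 1.5.0, R 4.3.3). The terms were the T label and the introduced gene, pairs of arrays were a random block (duplicateCorrelation), and p-values were Benjamini-Hochberg adjusted over the 13868 genes. Arrays of a group were matched into 38 pairs over the series by the Pearson correlation of 19 autosome medians. The correlation of gene deviations from the group mean is no independent check of this matching, because the autosome medians come from the same genes. Subtracting the group mean also lowers the correlations between arrays of a group. In the ErbB3 group it was 0.23 to 0.76 within pairs, against -0.66 to 0.08 between other arrays. In the HER2 group it was 0.03 to 0.48, against -0.62 to 0.03. The fit was also run on simulated data drawn with the same pairs and the same correlation, which cannot test how the pairs were found. Because the T label is in the model, fitted differences can depart from the difference of means. Folds are 2 to the power of the fitted difference, except for Tmprss11e, where the difference of group means was used with the ErbB3 arrays set to the background level.

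The 124 genes named by rule are the 12 highest and 12 lowest fitted differences among called genes with separated groups, up to 4 called members of each of 37 lists with the largest difference, and all ERBB receptors and ligands. Further list members are named with their values to show what a count holds, after their values were seen. The lists name 799 genes, of which 692 were tested. The groups, members and lists were chosen with earlier results of these data known. No set test was run. Alternatives covered the block, T label, arrays in the fit, filter, normalization, probe set, variance prior, array weights, threshold, covariates and leaving out arrays or pairs. Promoter sequences are from RefSeq (GRCm38.p6). A gene that the series title names is left out.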

Additional observations from a re-analysis of the deposited data

Results flagged for a closer look

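Among the named genes, 6 of 248 groups of 6 arrays held 1 array far from the other 5 by Dixon's criterion, as did 1 of 74 groups of list means. Chance gives about 1 in 20 for independent arrays. The arrays here are paired, so that rate is only a rough guide, and both counts are below it. All 7 were HER2 arrays. Egfr was 5.98 on the array T1 replicate 2, against 7.01 to 7.30 on the other HER2 arrays. On that array Ndufa5 was 8.93, against 9.317 to 9.498, and Wnt10a was 4.27, against 4.48 to 4.59. On the array T3 replicate 1, Lrp5 was 5.62, against 4.89 to 5.07, and Nkg7 was 4.69, against 4.33 to 4.44. On the array T2 replicate 1, Psph was 9.81, against 9.65 to 9.71, and the mean of the p53 and cell cycle inhibitor list was 0.16, against 0.01 to 0.07. The cause was not tested.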

How the results depend on the processing

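The main count of 2406 genes called, with 1051 higher and 1355 lower, moved most with the fibroblast covariate and with the pairs. Without the pair block it was 4671 (2152 higher, 2519 lower), with the mean of each pair 1449 (616 and 833), on the 12 arrays alone 1449 (680 and 769), at a threshold of 0.01 it was 1174 (503 and 671), and with the fibroblast covariate 385 (147 and 238), of which 173 at 2-fold or more. Leaving out an array or pair gave 699 to 3189 calls, 290 to 1478 higher, 409 to 1711 lower and 297 to 954 at 2-fold or more. The lowest counts were those without ErbB3 pair B and the highest those without ErbB3 pair A, and without ErbB3 pair C or HER2 pair B the totals were 1576 and 1478. Quantile normalization of the arrays moved the share of calls that were higher to 48.8%, against 43.7%. Of the 118 named genes called, 118 kept direction and call without the pair block, 76 with the mean of each pair, 54 without ErbB3 pair B and 30 with the fibroblast covariate. The sign changed for Nrg2 with the mean of all probe sets (-0.14), and with the fibroblast covariate for Mylk (-0.019) and Ereg (0.16), and the cause was not tested. The replicate numbers in the titles did not pair ErbB3 with HER2 arrays (correlations of -0.33 to 0.25 in 5 shared numbers), and with them as a replicate block 2271 genes were called. Genes near the background level of 2.95 are limited by signal.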

Other observations

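Signalling lists outside the ERBB pathway held single genes with large differences. The counts below stand against 7.58% higher and 9.77% lower among all genes, and small counts near these shares say nothing about a list. Of 26 Wnt genes tested, 4 were lower and 1 was higher in ErbB3 tumours. The ligand Wnt7b had 6.59, 7.38 and 7.99 in ErbB3 tumours, against 8.63, 9.49 and 10.05 in HER2 tumours (-2.11 ± 0.47, adjusted p = 0.000949), while Wnt10a was 4.32 and 4.54 in ErbB3 pair A and 6.06 to 7.46 in pairs B and C, against 4.27 to 4.59 in HER2 tumours (1.56 ± 0.38, adjusted p = 0.00243). Wnt5a (-0.88) and the co-receptor Lrp5 (-0.74) were lower. Of 23 TGF-beta and BMP genes, 2 were higher and 2 lower (8.7% each), close to the shares of all genes. Tgfb3 had 8.02, 9.33 and 9.41 in ErbB3 tumours, against 7.04, 7.22 and 7.93 in HER2 tumours (1.62 ± 0.26, adjusted p = 8.26e-06), and Smad7, an inhibitor that the pathway induces, had 8.37, 8.53 and 9.35 in ErbB3 tumours, against 9.65, 9.66 and 9.93 in HER2 tumours (-1.02 ± 0.22, adjusted p = 0.000569). Notch4 (1.09) and Notch2 (0.45) were the 2 called of 16 Notch genes. Of 20 JAK-STAT genes, Il6st was higher (0.73) and the kinases Pim3 (-1.36), Jak2 (-0.70) and Pim2 (-0.46) were lower. Of 20 p53 and cell cycle inhibitor genes, 2 were higher, Fas (1.02) and Cdkn2c (0.91), and 4 lower, led by Pmaip1 (-1.42). Of 22 matrix proteases and inhibitors, 3 were higher and 4 lower. The inhibitor Timp3 had 8.99, 10.39 and 10.93 in ErbB3 tumours, against 6.90, 7.60 and 7.97 in HER2 tumours (2.62 ± 0.39, adjusted p = 2.68e-06), and the macrophage elastase Mmp12 had 3.62, 5.78 and 9.27 in ErbB3 tumours, against 9.22, 9.95 and 11.34 in HER2 tumours (-3.80 ± 0.81, adjusted p = 0.000588), although macrophage genes as a list were higher.

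The calls were spread unevenly over the chromosomes. On chromosome 15, 101 of 561 genes tested were lower in ErbB3 tumours (18%, against 9.77% of all genes) and 28 were higher. Its median expression, as a deviation from all arrays, averaged -0.09 on the ErbB3 arrays (-0.11 to -0.06) and 0.02 on the HER2 arrays (-0.07 to 0.20). HER2 pair C carried that mean, at 0.12 and 0.20, against -0.07 to -0.01 on the other HER2 arrays. Krt18, Krt8, Aqp5, Wnt7b, Pim3 and Srebf2, named above as lower in ErbB3 tumours, lie on this chromosome. Whether their differences relate to its median was not tested. On chromosome 19, 79 of 483 genes were lower (16.4%) and 39 higher, and its median averaged -0.02 on the ErbB3 arrays and 0.06 on the HER2 arrays. On chromosome 8, 83 of 726 genes were higher (11.4%) and 32 lower, with means of 0.06 on the ErbB3 arrays and -0.02 on the HER2 arrays. ErbB3 pair C, at 0.15 and 0.18, carried the ErbB3 mean, against -0.01 to 0.03 on the other ErbB3 arrays. By an exact two-sided permutation test over the 924 splits of the 12 arrays, adjusted over 20 chromosomes, the difference had an adjusted p of 0.0216 for chromosomes 15 and 19 and 0.162 for chromosome 8. It was below 0.05 for 10 of the 20 chromosomes, and chromosomes 1, 5, 12 and 17 had the same adjusted p as 15 and 19. The arrays are paired, and 3 pairs against 3 could not give a p below 0.1. DNA copy number was not measured in these files.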
